A study of Mus musculus with 64 samples.

Results

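Ier2, Ier5 and Id1 are short genes of the fast transcriptional response, and their RNA was followed here through mouse (Mus musculus) preimplantation development. Each was read by 1 probe, namely every probe whose only symbol in the platform's probe-to-gene table was one of these names, so these are 3 of the 3089 genes that have such a probe, and 3 of 22575 probes, and 0 further probes listed a member among several symbols. Total RNA of eggs and embryos was hybridised on 64 arrays of 2 colours against a common reference. A stage set of 28 arrays covered 7 stages with 4 arrays each, from the unfertilized egg and the fertilized egg over the 2-cell, 4-cell and 8-cell embryo to the morula and the blastocyst, and its reference channel is named Universal Control. A treatment set of 36 arrays, with a reference named Universal Reference, held 12 groups of 3. They comprise untreated controls of 4 times, 21 and 32 h, which the labels equate with early and late 1-cell embryos, and 43 and 54 h, their early and late 2-cell embryos. AM groups exist for the last 3 of these times, groups with AC and with DMSO for 32 and for 43 h, and a CHX group for 43 h alone. The labels give no strain, age, dose or starting point for the hours, and they do not spell out the treatments. From general knowledge of embryo studies, AM, AC and CHX are taken to be α-amanitin, which blocks RNA polymerase II, aphidicolin, which blocks DNA replication, and cycloheximide, which blocks protein synthesis, dimethyl sulfoxide (DMSO) being a solvent.

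Immediate early genes are switched on by serum, growth factors or stress without the need for new protein, and their mRNAs are typically unstable. Ier2 encodes a small nuclear protein of this class. Ier5 encodes a related protein that in mammalian cells brings the phosphatase PP2A to the heat shock factor Hsf1 and is itself a target of that factor. Id1 encodes a helix-loop-helix protein without a DNA-binding region, which holds E proteins such as Tcf3 away from DNA. It is a direct target of BMP signalling through Smad1 and Smad5, and in many cells it also behaves as a serum-induced early gene. In the mouse the embryonic genome is first transcribed weakly at the late 1-cell stage and strongly at the 2-cell stage, while maternal RNA is degraded.

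Of the members, Ier5 alone had an entry in the RefSeq promoter table (build GRCm38.p6). Its 250 bases before the annotated start, chr1:155099637-155099886 on the minus strand, are shown because Ier5 followed Ier2 through the 2-cell hours described further on, and this is the stretch of DNA in which proximal elements of such genes are usually looked for.
Ier5 promoter: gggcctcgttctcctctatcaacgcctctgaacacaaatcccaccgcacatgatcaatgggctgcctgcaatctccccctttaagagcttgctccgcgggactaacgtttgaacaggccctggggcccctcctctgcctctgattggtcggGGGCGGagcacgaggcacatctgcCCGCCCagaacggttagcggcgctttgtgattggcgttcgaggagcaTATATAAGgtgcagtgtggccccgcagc
The capitals mark the GC-box letters GGGCGG, which begin 99 bases before the start, and their reverse complement, which ends 70 bases before it. These letters lie on either strand in 32.7% of 32851 promoters of the same length in that table. The capitals also mark TATATAAG, one spelling of the TATA box, which begins 28 bases before the start and lies in 0.935% of those promoters; it was searched for after the sequence had been seen. Also searched on both strands, and not in this window, were the other TATA-box spelling TATAAA (in 12.4% of all promoters), the full cyclic AMP response element TGACGTCA (1.55%) and its short form TGACG (17.8%), which overlaps the full one. The same holds for the BMP-response letters GGCGCC (9.59%), the heat shock element GAANNTTC (6.69%) and the CArG box bound by serum response factor (1.47%).

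All levels are given as log2 of the embryo signal over that of the reference, so that −1 means that the reference held 2 times as much RNA signal. The 2 sets were not merged, and a ratio of one probe was not set against that of another. The direction is likely but not settled. The 4 oocyte genes measured, on 5 probes, all exceeded the reference in unfertilized eggs and all were lower in blastocysts. Of 9 trophectoderm genes listed beforehand 0 were measured. Of 22 added after the data were seen 4 were, and 6 of their 7 probes were higher in blastocysts than in unfertilized eggs. Among the stages the Fabp3 probes were highest in blastocysts. The Hand1 and Dsc2 probes were highest in 2-cell or 4-cell embryos, 1 Hand1 probe at 4.37 in 2-cell embryos against 2.55 in blastocysts. The Slc2a1 probe went the other way, at −3.66 in unfertilized eggs and −3.95 in blastocysts, and was highest in fertilized eggs (−3.35). With the opposite sign every rise and fall below would swap. The lowest correlation of any pair of arrays was 0.503, so they were oriented alike. The stage arrays fall into 2 parts that no label names, 17 arrays with 322 to 372 features at the upper limit and 11 with 69 to 312. The second holds unfertilized egg array 4, all 8-cell and blastocyst arrays and morula arrays 3 and 4, so for 4-cell against 8-cell embryos part and stage can be separated only through the unfertilized eggs and morulae. In the treatment set 4 arrays had 5 to 156 such features, namely the third ones with AM at 32 h, with AM at 54 h, with AC at 32 h and with DMSO at 32 h, while the other 32 had at least 298. Deposited ratios are held at 100-fold, a log2 value of −6.64 at the lower end, and Ier2 was at that limit in 5 of 36 treatment arrays; Ier5 and Id1 were at it in 0. Of 13 cumulus and granulosa cell markers 1 was measured, Cyp11a1, so RNA of those cells in the egg samples was not tested. Since whole eggs or embryos were measured, fewer cells of a kind and less RNA per cell cannot be told apart.

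All 3 genes differed among the 7 stages. By limma's F test on the 28 stage arrays the adjusted p was 2.49e-07 for Ier2, 5.15e-06 for Ier5 and 0.000312 for Id1, where 64.3% of all 22575 probes passed. Their courses were not alike, as the plot of the stage arrays shows. By group mean, Ier2 was lowest in eggs and highest in blastocysts, and Ier5 was highest at the 2-cell and 4-cell stages. Id1 was highest in fertilized eggs and 2-cell embryos.

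**Figure D1:**
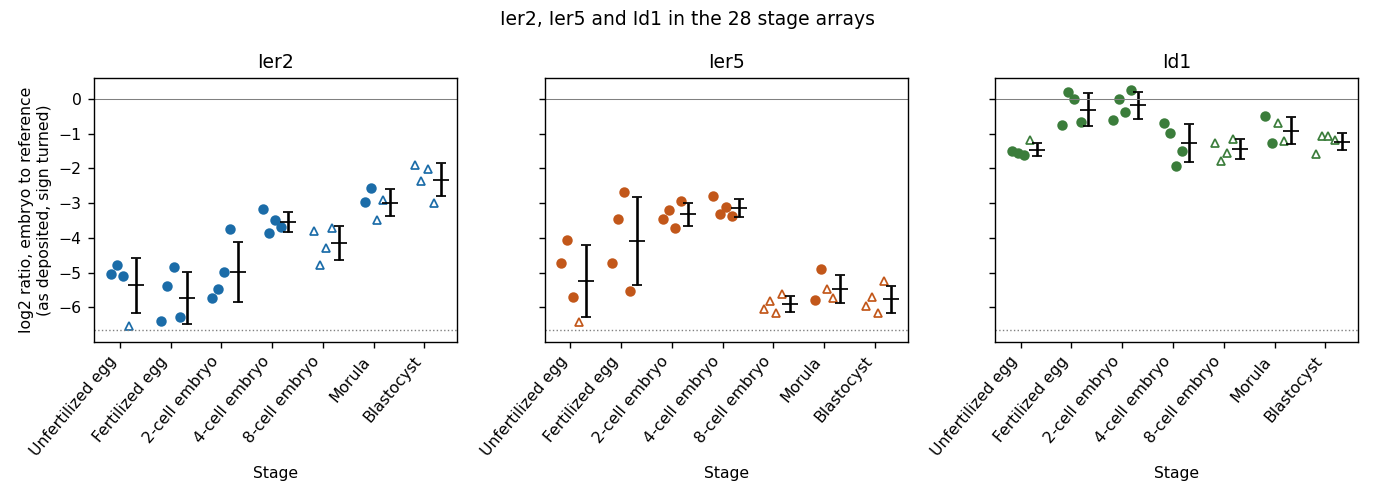
Log2 ratio of embryo to reference for Ier2, Ier5 and Id1 (vertical axes) in each of the 28 stage arrays by stage (horizontal axes). Filled circles are arrays of the first unlabelled part and open triangles of the second, black bars are means ± SD (n = 4), the dotted line is the lower limit at −6.64, and Ier5 drops from a mean of −3.15 in 4-cell embryos to −5.91 in 8-cell embryos.

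Ier2 RNA rose in the course of cleavage. Its log2 ratios were −5.04, −4.78, −5.09 and −6.52 in unfertilized eggs, −6.39, −5.37, −4.84 and −6.28 in fertilized eggs and −5.73, −5.46, −4.99 and −3.76 in 2-cell embryos. They were −3.18, −3.85, −3.49 and −3.69 in 4-cell embryos, and apart from the highest 2-cell array all 4 lay above the 2-cell arrays. The difference of 4-cell over 2-cell embryos was 1.43 ± 0.41 (SE, limma adjusted p = 0.021), or 2.70-fold. With each array scaled to 1 interquartile range it was 0.31 (adjusted p = 0.558), and the call was lost in 3 of 8 fits with 1 array left out. The adjusted p was then 0.085 without 2-cell array 1, 0.077 without 2-cell array 2 and 0.068 without 4-cell array 1.

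After the 4-cell stage the Ier2 values were −3.81, −4.77, −4.28 and −3.71 in 8-cell embryos, −2.98, −2.55, −3.49 and −2.92 in morulae and −1.90, −2.36, −2.03 and −2.99 in blastocysts. All 4 morulae were above all 4 8-cell embryos, a difference of 1.16 ± 0.41 whose limma adjusted p was 0.080. Without morula array 3, which like all 8-cell arrays lies in the second part, it was 1.33 with an adjusted p of 0.040. That omission raised the calls over all probes from 1101 to 4252, and with part as a block 0 probes were called. Blastocysts lay 3.04 ± 0.41 above unfertilized eggs (8.22-fold, limma adjusted p = 1.37e-06), with no overlap of arrays; this pair of stages was added once results were known, and 29.5% of probes were called in it. This Ier2 difference ranged from 2.33 to 3.72 over 8 other settings and was called in all of them; within the second array part, where unfertilized egg array 4 is the only egg, it was 4.20. In order of its mean, Ier2 was highest in blastocysts (−2.32 ± 0.49, SD, n = 4) and then lower in morulae (−2.98 ± 0.39), 4-cell embryos (−3.55 ± 0.29), 8-cell embryos (−4.14 ± 0.49), 2-cell embryos (−4.98 ± 0.87), unfertilized eggs (−5.36 ± 0.79) and fertilized eggs (−5.72 ± 0.75). Each neighbouring pair in that order overlapped in its arrays.

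Ier5 RNA had its highest group means at the 2-cell and 4-cell stages and low means afterwards. Fertilized eggs overlapped with both of these stages, and 2-cell embryos were not called above them (0.76 ± 0.45, limma adjusted p = 0.232). In unfertilized eggs its log2 ratios were −4.74, −4.07, −5.70 and −6.42, and in fertilized eggs −4.71, −3.45, −2.67 and −5.52. They were −3.45, −3.21, −3.70 and −2.93 in 2-cell embryos and −2.80, −3.30, −3.12 and −3.36 in 4-cell embryos. The egg arrays of both kinds were scattered over more than 2 log2 units, whereas the 2-cell and 4-cell arrays lay close together. In 8-cell embryos Ier5 fell to −6.04, −5.82, −6.15 and −5.63, and it was at −5.78, −4.90, −5.48 and −5.73 in morulae and −5.95, −5.69, −6.17 and −5.25 in blastocysts.

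The difference of Ier5 between 4-cell and 8-cell embryos was −2.76 ± 0.45 or 6.79-fold lower (limma adjusted p = 5.26e-05), in a comparison in which 41.1% of all probes were called. All 4-cell arrays lie in the first part of the stage arrays and all 8-cell arrays in the second. With part as a block the difference was −1.93 with an adjusted p of 0.123, and scaled to 1 interquartile range it was −1.48 (adjusted p = 0.0049). Morulae, which lie in both parts, were 2.33 ± 0.45 below 4-cell embryos (−2.33, limma adjusted p = 0.00081) in an added comparison that called 10.8% of probes. With part as a block that difference was −1.91 (adjusted p = 0.014), and within the first part, with morula arrays 1 and 2 only, it was −2.19 (adjusted p = 0.068). Blastocysts and unfertilized eggs overlapped in Ier5, and their difference of −0.53 ± 0.45 was not called (limma adjusted p = 0.431). It was 0.09 with part as a block and 0.66 within the second part, where unfertilized egg array 4 is the only egg.

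Ier5 was highest on average in 4-cell embryos (−3.15 ± 0.25) and then lower in 2-cell embryos (−3.32 ± 0.33), fertilized eggs (−4.09 ± 1.27), unfertilized eggs (−5.23 ± 1.04), morulae (−5.47 ± 0.41), blastocysts (−5.76 ± 0.40) and 8-cell embryos (−5.91 ± 0.23), each ± SD over 4 arrays. Every neighbouring pair in that order overlapped. Fertilized eggs were 1.14 ± 0.45 above unfertilized eggs, which was not called (limma adjusted p = 0.220).

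Id1 RNA had its highest group means in fertilized eggs and 2-cell embryos. Its log2 ratios were −1.50, −1.55, −1.63 and −1.19 in unfertilized eggs, and −0.75, 0.18, −0.02 and −0.66 in fertilized eggs, which all lay above them. They were −0.61, −0.02, −0.38 and 0.26 in 2-cell embryos and −0.70, −0.98, −1.93 and −1.51 in 4-cell embryos, again without overlap. Fertilized eggs exceeded unfertilized eggs by 1.15 ± 0.27 (limma adjusted p = 0.045), Id1 being the 1 member called where 0.766% of all probes were. The call did not hold with the replicate number as a block (adjusted p = 0.063), within the first part (adjusted p = 0.087), in a fit of these 2 stages alone (adjusted p = 0.312), or in 4 of 8 fits with 1 array left out. Those adjusted p were 0.086 without unfertilized egg array 2, 0.145 without array 3, 0.161 without fertilized egg array 2 and 0.160 without array 3.

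From 2-cell to 4-cell embryos Id1 fell by 1.09 ± 0.27 (−1.09, limma adjusted p = 0.0081), or 2.13-fold. Id1 and Ier2 moved in opposite directions at this step, 1 member called lower and 1 higher where 13.6% of all probes were called. The Id1 fall was called in all 8 fits with 1 array left out (−1.28 to −0.87) and missed the threshold only when these 2 stages were fitted alone (adjusted p = 0.095). Later values were −1.26, −1.79, −1.56 and −1.15 in 8-cell embryos, −0.49, −1.26, −0.70 and −1.20 in morulae and −1.57, −1.08, −1.08 and −1.18 in blastocysts. They overlapped with each other and with the 4-cell arrays. The morula arrays also overlapped with those of fertilized eggs and of 2-cell embryos. Neither of these stages was tested against 8-cell embryos, morulae or blastocysts.

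In order of the mean, Id1 was highest in 2-cell embryos (−0.19 ± 0.39) and lower in fertilized eggs (−0.31 ± 0.47), morulae (−0.92 ± 0.38), blastocysts (−1.23 ± 0.24), 4-cell embryos (−1.28 ± 0.55), 8-cell embryos (−1.44 ± 0.29) and unfertilized eggs (−1.47 ± 0.19), each ± SD over 4 arrays, and each neighbouring pair overlapped. In 3 steps no member passed the threshold. From fertilized eggs to 2-cell embryos, where 27.4% of all probes were called, Ier2 differed by 0.74 ± 0.41 and Ier5 by 0.76 ± 0.45, and 0 members were under an unadjusted p of 0.05 in limma. Scaled to 1 interquartile range these Ier2 and Ier5 differences were 1.81 and 1.40 and both were called (adjusted p = 9.56e-06 and 0.012), and Ier5 was also called without fertilized egg array 3 (1.24, adjusted p = 0.037). From 8-cell embryos to morulae (4.88% of probes called) 1 member, Ier2, was under 0.05 unadjusted, and from morulae to blastocysts (1.33% of probes called) 0 were.

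Control embryos of the treatment set cover the 1-cell to 2-cell interval at 4 times, so these RNAs could be followed across it. Ier2 rose from 32 to 43 h and again to 54 h, and Ier5 rose from 32 to 43 h. For Ier2 the log2 ratios as deposited were −5.55, −6.15 and −6.14 at 21 h, −6.34, −6.64 and −6.64 at 32 h, −5.76, −3.91 and −5.11 for 43 h, and lastly −3.49, −3.15 and −3.47 for 54 h. The last pair of 32 h arrays was at the limit of measurement, so the true 32 h mean may be lower. No array of 43 h overlapped with 32 h, nor of 54 h with 43 h.

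**Figure D2:**
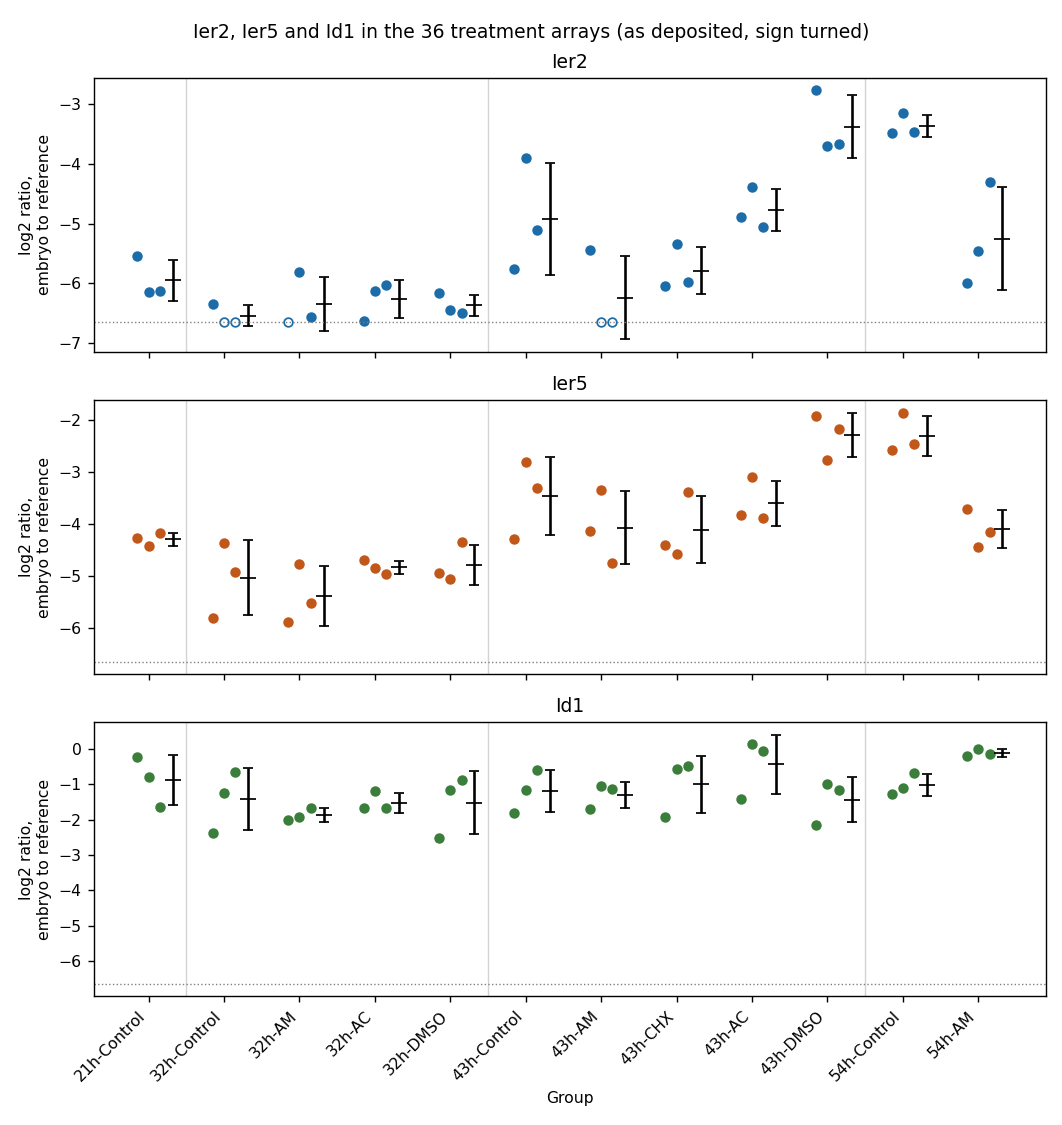
Log2 ratio of embryo to reference for Ier2, Ier5 and Id1 (vertical axes, values as deposited) in each of the 36 treatment arrays by group (horizontal axis), with vertical lines between the hours. Open circles are values at the lower limit of −6.64 (dotted line), black bars are means ± SD (n = 3), and Ier2 is highest in 54 h controls and in DMSO at 43 h, with means of −3.37 and −3.38.

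Differences in the treatment set were tested after quantile normalization and are given on that scale. A rule on the spread of array medians called for it, and 43 h control array 1 set the low end of that spread. Ier2 rose by 1.54 ± 0.41 from 32 to 43 h (2.90-fold, limma adjusted p = 0.031) and by 1.43 ± 0.41 from 43 to 54 h (2.70-fold, adjusted p = 0.046). Ier5 rose by 1.71 ± 0.43 from 32 to 43 h (3.28-fold, limma adjusted p = 0.019) and differed by 1.08 ± 0.43 from 43 to 54 h (adjusted p = 0.158, and 0.044 in a fit of these 2 groups alone). So 2 of 3 members were called from 32 to 43 h, where 3.6% of all probes were, and 1 from 43 to 54 h, where 4.08% were. Between 21 and 32 h 0 members were called in limma and 1, Ier5 (−0.94 ± 0.43), was under 0.05 unadjusted, with 0.315% of probes called.

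These 3 calls rest on few arrays. Without single arrays, Ier2 from 32 to 43 h was 1.32 to 1.71 and uncalled in 4 of 6 fits (adjusted p up to 0.176, without 43 h control array 2; 0.145 and 0.122 without 32 h arrays 2 and 3, and 0.081 without 43 h array 1), and Ier5 was 1.42 to 2.04 and uncalled in 4 of 6 (0.130 without 32 h array 1, 0.072 without 32 h array 3, 0.088 and 0.051 without 43 h arrays 2 and 3). Ier2 from 43 to 54 h was 1.26 to 1.65 and uncalled in 5 of 6, with adjusted p from 0.105 without 54 h array 3 to 0.161 without 43 h array 3; it was 0.122 without 43 h array 1 and 0.121 and 0.141 without 54 h arrays 1 and 2.

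The log2 ratios of Ier5 as deposited were −4.28, −4.43 and −4.18 at 21 h, −5.80, −4.36 and −4.93 at 32 h, −4.28, −2.81 and −3.32 for 43 h, and lastly −2.58, −1.86 and −2.46 for 54 h. The 54 h arrays were all above the 43 h arrays. Id1 was spread widely at each time and its groups overlapped: −0.23, −0.80 and −1.63 at 21 h, −2.36, −1.25 and −0.65 at 32 h, −1.80, −1.16 and −0.60 for 43 h, and lastly −1.27, −1.12 and −0.68 for 54 h. From 32 to 43 h Id1 differed by 0.42 ± 0.43 (95% interval −0.46 to 1.30), and from 43 to 54 h by 0.11 ± 0.43.

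AM was compared with the control of the same hour to see which RNA depends on transcription. At 54 h Ier2 and Ier5 were lower with AM. Ier2 was at −5.99, −5.46 and −4.30 with AM against −3.49, −3.15 and −3.47 in controls, and Ier5 at −3.71, −4.44 and −4.15 against −2.58, −1.86 and −2.46, with no overlap for either. The differences were −1.48 ± 0.41 for Ier2 (2.79-fold lower, limma adjusted p = 0.029) and −1.73 ± 0.43 for Ier5 (3.31-fold lower, adjusted p = 0.012). Id1 ran the other way, at −0.21, −0.0016 and −0.15 with AM, all above the control arrays, but its difference of 0.88 ± 0.43 was not called (limma adjusted p = 0.262). Thus 2 of 3 members were called lower and 0 higher, where 6.45% of all probes were called. Both calls were lost without the third AM array, which is one of the 4 with few features at the upper limit: Ier2 was then −1.60 (adjusted p = 0.052) and Ier5 −1.43 (adjusted p = 0.099). Leaving out other single arrays ended the Ier2 call in 4 further fits (adjusted p = 0.110 without AM array 2, and 0.088, 0.097 and 0.061 without control arrays 1, 2 and 3) and the Ier5 call in 2 (0.058 without AM array 2 and 0.082 without control array 2), and scaling to 1 interquartile range ended both (0.244 and 0.131).

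At 43 h the AM arrays of Ier2 were at −5.44, −6.64 and −6.64, the last pair at the limit, against −5.76, −3.91 and −5.11 in controls. The groups overlapped, and the difference of −1.17 ± 0.41 had an unadjusted p of 0.0088 and a limma adjusted p of 0.986; with 2 of 3 AM arrays at the limit, its true size may be larger. Ier5 was at −4.14, −3.34 and −4.74 with AM, a difference of −0.53 ± 0.43. Here 0 of 3 members and 0 of 22575 probes (0%) were called in limma, 1 member and 982 probes being under an unadjusted p of 0.05. At 32 h 0 members and again 0% of probes were called, with 0 members and 475 probes under 0.05 unadjusted. Ier2 with AM at 32 h was at −6.64, −5.82 and −6.56, close to the limit as its controls were, so a lower value could not be seen. At that hour Ier5 was at −5.89, −4.77 and −5.51 with AM, and Id1 at −2.02, −1.93 and −1.66.

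Whether the AM difference itself changed with time was tested as an interaction. From 32 to 43 h 0 members and 0% of probes were called in limma, 1 member, Ier2, and 302 probes being under 0.05 unadjusted. No value is given there for Ier2, since 2 of 3 controls and 1 of 3 AM arrays at 32 h and 2 of 3 AM arrays at 43 h were at the limit, which holds the AM difference at 32 h near 0. For Ier5 it was −1.20 ± 0.61 from 43 to 54 h (limma adjusted p = 0.521) and for Id1 1.07 ± 0.61 (adjusted p = 0.582), with 0 members called, 0 under 0.05 unadjusted and 0.0797% of probes called. The responses at 43 and 54 h were therefore not shown to differ.

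Within AM the times were set beside each other after the data were seen. From 32 to 43 h with AM Ier5 differed by 1.42 ± 0.43 without overlap of arrays, which did not reach the threshold (limma adjusted p = 0.065). Ier2 was at the limit in 1 of 3 of these arrays at 32 h and 2 of 3 at 43 h, so its difference between them was not measured. Called were 0 members (1 under 0.05 unadjusted) and 3.41% of probes, and when scaled to 1 interquartile range the Ier5 difference was 2.25 and called (adjusted p = 0.020). From 43 to 54 h with AM Id1 differed by 1.19 ± 0.43 (adjusted p = 0.340) and Ier2, from a 43 h group mostly at the limit, by 1.13 ± 0.41 (adjusted p = 0.343). Called in limma were 0 members (2 under 0.05 unadjusted) and 0.12% of probes.

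CHX was compared at 43 h with control and with AM, which sets a block of translation beside a block of transcription. Ier2 with CHX was at −6.04, −5.34 and −5.98, Ier5 at −4.40, −4.57 and −3.38 and Id1 at −1.92, −0.57 and −0.49. All 3 overlapped with the 43 h controls. Against control the differences were −0.52 ± 0.41 for Ier2, −0.57 ± 0.43 for Ier5 and 0.26 ± 0.43 for Id1, with 95% intervals of −1.37 to 0.33, −1.45 to 0.31 and −0.62 to 1.14. None was called (limma, 0 under 0.05 unadjusted), with 2.25% of all probes called. Against AM, in a comparison that shares the CHX arrays, Id1 differed by 0.45 ± 0.43 and Ier2 by 0.65 ± 0.41, the latter against a group with 2 of 3 arrays at the limit, so that its true size may be larger, again with 0 members called, 0 under 0.05 unadjusted and 1.55% of probes called.

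AC was compared with its DMSO control to see which RNA depends on DNA replication. At 43 h Ier2 was at −4.89, −4.39 and −5.06 with AC and −2.77, −3.70 and −3.67 with DMSO, and Ier5 at −3.83, −3.10 and −3.89 with AC and −1.93, −2.76 and −2.17 with DMSO. As deposited neither overlapped, and both overlapped after normalization. Id1 was at −1.40, 0.13 and −0.04 with AC, 2 of 3 arrays lying above all of the DMSO arrays at −2.15, −0.98 and −1.17. The differences were −1.11 ± 0.41 for Ier2 (limma adjusted p = 0.250), −1.11 ± 0.43 for Ier5 (adjusted p = 0.273) and 0.98 ± 0.43 for Id1 (adjusted p = 0.341), so 0 of 3 were called in limma, all 3 being under 0.05 unadjusted, with 0.204% of probes called. Without the first AC array Id1 differed by 1.50 and was called (adjusted p = 0.023). The 3 AC arrays of 43 h were not closely alike, with mean correlations to their group of 0.76, 0.797 and 0.852. Without the first one 2866 probes were called instead of 46. At 32 h AC differed from DMSO by less than 0.10 log2 units for each member. The 95% intervals were −0.84 to 0.85 for Ier2, −0.97 to 0.78 for Ier5 and −0.97 to 0.79 for Id1. Called in limma were 0 members and 0% of probes, with 0 members and 424 probes under 0.05 unadjusted. Ier2 was close to the lower limit in both groups, at −6.63, −6.13 and −6.03 with AC and −6.17, −6.44 and −6.49 with DMSO. A clearly lower Ier2 value could therefore not be seen.

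DMSO was compared with untreated control as a check on the solvent. At 43 h all 3 DMSO arrays of Ier2 and of Ier5 were above all 3 controls. The differences were 1.31 ± 0.41 for Ier2 (limma adjusted p = 0.411) and 0.94 ± 0.43 for Ier5 (adjusted p = 0.645), and 0 members and 0% of probes were called, with 2 members and 1655 probes under 0.05 unadjusted. Side by side at 43 h, the Ier2 means as deposited were −4.78 ± 0.35 for AC, −4.93 ± 0.94 for control and −3.38 ± 0.53 for DMSO (SD, n = 3), and the Ier5 means were −3.61 ± 0.44, −3.47 ± 0.75 and −2.29 ± 0.43. At 32 h DMSO was at −6.17, −6.44 and −6.49 for Ier2 and −4.95, −5.05 and −4.35 for Ier5, and 0 members were called or under 0.05 unadjusted in limma, with 0.656% of probes called. For Ier2 2 of 3 controls at 32 h were at the lower limit, so a lower control value could not be seen.

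From 32 to 43 h, in comparisons that were likewise added later, Ier2 rose by 2.83 ± 0.41 in DMSO (7.13-fold, limma adjusted p = 2.18e-05) and by 1.72 ± 0.41 in AC (3.30-fold, adjusted p = 0.0063). Ier5 rose by 2.58 ± 0.43 in DMSO (5.99-fold, limma adjusted p = 0.000103) and by 1.57 ± 0.43 in AC (2.97-fold, adjusted p = 0.014). In DMSO 2 of 3 members were called where 24.3% of probes were, and both calls held in all 6 fits with 1 array left out. In AC 3 of 3 were called where 17.1% of probes were, Id1 by 1.30 ± 0.43 (adjusted p = 0.039). Without AC array 2 of 43 h none of the 3 passed (adjusted p = 0.093, 0.159 and 0.248 for Ier2, Ier5 and Id1), without AC array 3 of 32 h only Ier2 did (0.068 for Ier5, 0.141 for Id1), and Id1 also missed the threshold without array 1 of 32 h (0.086), without array 3 of 43 h (0.166) and on values as deposited (1.08, 0.114).

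**Figure D3:**
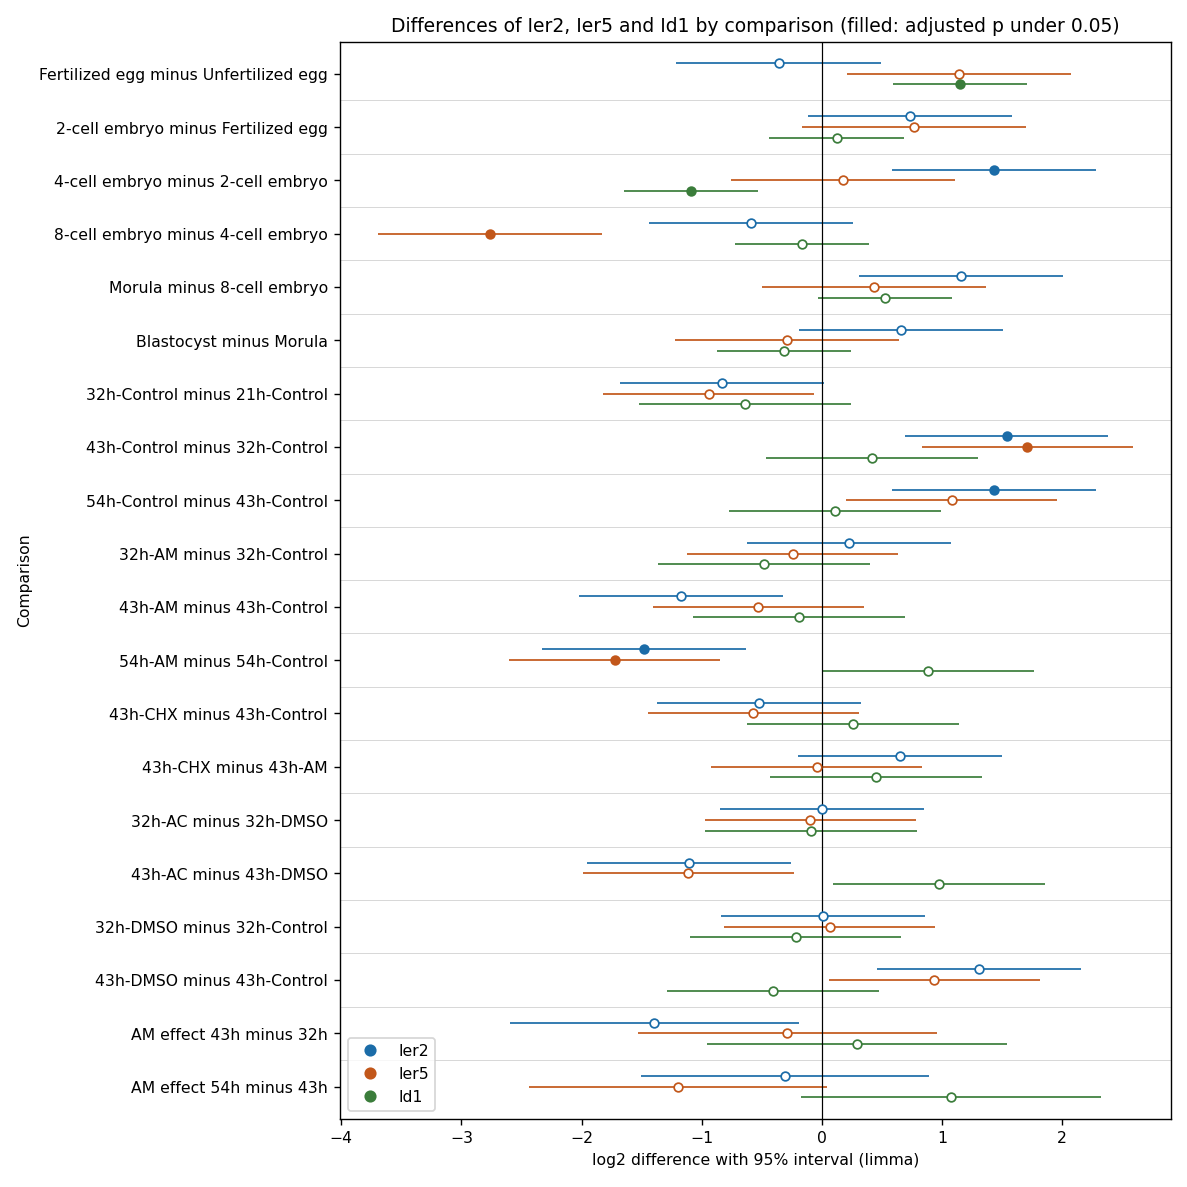
Log2 differences of Ier2, Ier5 and Id1 (horizontal axis, with 95% intervals from limma) for each planned comparison (vertical axis). Filled points have an adjusted p under 0.05, and Ier2 and Ier5 lie on the same side of 0 from 32 to 43 h in controls (1.54 and 1.71) and for AM at 54 h (−1.48 and −1.73).

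The Ier2 and Ier5 means were closely correlated over the 12 treatment groups and not over the 7 stages. Pearson's r between their group means was 0.948 over the treatment groups (Spearman 0.881), which share arrays and normalization, and 0.870 over the 10 groups left without 54 h control and 43 h DMSO. Over the stages r was −0.382. Among 4251 probes of other genes 13 reached an r of at least 0.948 with Ier2 over the treatment groups, where the median was −0.027 and the 5th and 95th percentiles were −0.816 and 0.784. Id1 stood at 0.465 with Ier2 and 0.457 with Ier5 over the treatment groups, and at −0.418 and 0.559 over the stages. In the treatment set the order of Ier2 means was 54 h control, DMSO at 43 h, AC at 43 h, 43 h control, AM at 54 h, CHX at 43 h, 21 h control, AM at 43 h, AC, AM and DMSO at 32 h and 32 h control, and of neighbours in it only DMSO and AC at 43 h were apart in all arrays. For Ier5 DMSO at 43 h and 54 h control led, the gap from there to the 43 h control was the only one without overlap between neighbours, and AM at 32 h was last. For Id1 AM at 54 h (−0.12 ± 0.11) and AC at 43 h (−0.44 ± 0.84) led, AM at 32 h (−1.87 ± 0.19) was last, and all neighbours overlapped.

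**Figure D4:**
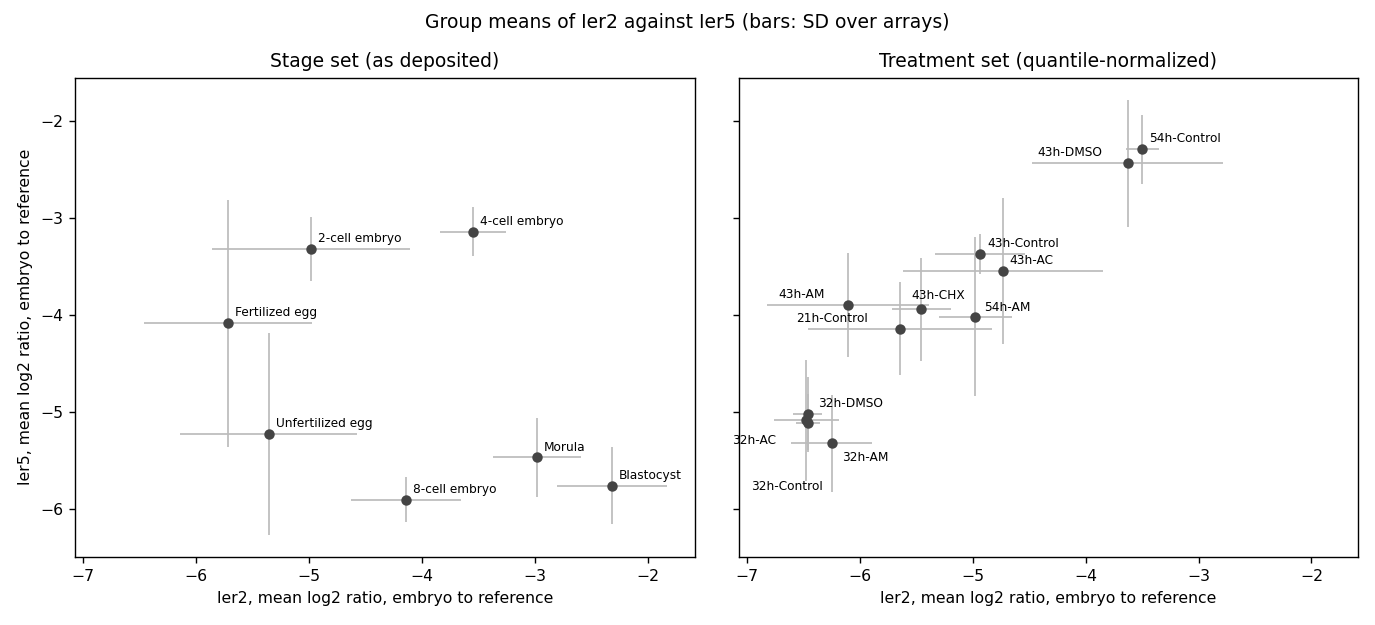
Mean log2 ratio of Ier5 (vertical axis) against that of Ier2 (horizontal axis) for the 7 stages (left) and the 12 treatment groups (right, quantile-normalized), with bars for the SD over arrays. The treatment groups lie along a rising line (r = 0.948), while 8-cell embryos, morulae and blastocysts combine a low Ier5 with a higher Ier2.

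Patterns were compared over the 19 group means after each set had been centred on its own mean, so that an offset between the sets does not enter. Among 3082 genes the patterns most like Ier2 were those of Fmr1 (Pearson's r = 0.933), Herc4 (0.909), Fbxw11 (0.902), Xylt2 (0.901) and Gng13 (0.898). Fmr1 encodes the RNA-binding protein FMRP, and Fbxw11 a substrate receptor of an SCF ubiquitin ligase. Most like Ier5 were Rdx (0.928), which encodes the membrane-cytoskeleton linker radixin, Fam102b (0.908), Hdgfl2 (0.896), Ap1m2 (0.893) and Sbno1 (0.877). Most like Id1 were Golga3 (0.921), Hcfc1r1 (0.913), Ppp6c (0.912), Slc38a1 (0.909) and Pclaf (0.895), the last a PCNA-binding protein gene. By Spearman's correlation 4 of the Ier2 genes, 3 of the Ier5 genes and 3 of the Id1 genes were again among the 5 highest. These are the highest of many correlations and describe likeness only, and they rest on arrays that all genes share.

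Other immediate early genes were measured in 9 of 60 listed cases (Jun, Dusp4, Btg1, Ccn1, Rhob, Plk2, Cebpd, Bhlhe40 and Sik1). In the counts and medians of this list and those below, each gene stands by its probe of largest difference. The shares and medians over all probes take every probe singly, so the 2 measures are not alike for genes with several probes. All list values come from the fit without array part as a block. For 8-cell over 4-cell embryos that block lowered the calls over all probes from 9285 to 578. From 2-cell to 4-cell embryos 0 of 9 were called (13.6% of all probes), and from 4-cell to 8-cell embryos (41.1%) 1, Rhob, a small GTPase gene, which was 0.76 higher (limma adjusted p = 0.028). In controls 0 of 9 were called from 32 to 43 h (3.6%). From 43 to 54 h (4.08%) 1 was called lower, Sik1, a kinase gene (−1.46, limma adjusted p = 0.00051), while the list's median difference was 0.53 against 0.04 for all probes. With AM at 54 h 0 of 9 were called (6.45%), and their median difference was 0.39 against 0.02 for all probes. From 32 to 43 h in DMSO, where 24.3% of all probes were called, 3 of 9 were called higher and 0 lower, Bhlhe40, a clock-linked repressor gene, by 2.18, Ccn1, a matricellular protein gene, by 1.26 and Cebpd by 1.00 (limma adjusted p = 0.011, 0.0026 and 0.0047). At the same step in AC, where all 3 members and 17.1% of all probes were called, 3 of 9 were called higher and 1 lower. The antiproliferative gene Btg1 was 1.15, Rhob 0.77 and Cebpd 0.73 higher (limma adjusted p = 0.0043, 0.029 and 0.042), and Sik1 was lower (−0.66, adjusted p = 0.043).

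Of 15 genes of the heat shock factor and of PP2A, with which Ier5 acts, 9 were measured. With AM at 54 h 2 were called lower, the small heat shock protein gene Hspb1 by −3.10 and the chaperone gene Hsph1 by −1.41 (limma adjusted p = 6.49e-06 and 0.0075), and 7 were not called, against 6.45% of all probes. Hspb1 was also 1.79 higher at 54 h than at 43 h in controls, the 1 gene of the 9 called there (4.08% of all probes). Its second probe gave −0.80 (adjusted p = 0.045) for AM and 0.46 (0.325) for this step. From 4-cell to 8-cell embryos, where Ier5 fell and 41.1% of all probes were called, 3 of the 9 were called higher and 3 lower by their probe of largest difference. The probes of Ppp2r2d, which encodes a regulatory PP2A subunit of the B55 family, were called in opposite directions, at 3.02 and −0.58 (limma adjusted p = 0.00011 and 0.048). Dnajb1, an Hsf1 target gene, was 1.90 lower (−1.90) as Hspb1 was (−1.49). All 4-cell arrays lie in the first array part and all 8-cell arrays in the second, which was not taken into account for these genes.

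Of 30 genes of the Id family, E proteins and BMP signalling 11 were measured. Between unfertilized and fertilized eggs, where Id1 was higher, 0 of 11 and 0.766% of all probes were called, with a median difference of 0.18 against 0.00 for all probes. From 2-cell to 4-cell embryos, where Id1 fell, Id4 was 1.24 higher and the oocyte growth factor gene Bmp15 was lower by 0.94 (−0.94, limma adjusted p = 0.0053 and 0.023; −0.17 by its second probe, not called), and 9 were not called (13.6% of all probes were). Smad1, the transducer of BMP signals, was called lower in both later steps of the controls, to 43 h (−1.53) and to 54 h (−1.50), by 1 probe, while the other gave −0.13 and −0.78 without a call. With AM at 54 h the E protein gene Tcf4 was 1.09 higher by 1 of its 5 probes (limma adjusted p = 0.016), the other 4 giving −0.81 to 0.66 without a call, and the other 10 genes were not called. Of 11 regulators of serum response factor 3 were measured. With AM at 54 h, where 6.45% of all probes were called, 1 of the 3 was, Elk4, an ETS partner of that factor (0.90 higher, limma adjusted p = 0.0078). In controls 1 was called lower from 32 to 43 h (3.6% of all probes) and 2 were from 43 to 54 h (4.08%), 0 being higher. Mrtfa, the actin-controlled coactivator of that factor, was called in both steps (−1.23 and −1.67, limma adjusted p = 0.048 and 0.0076), and Map2k1, a kinase of the ERK pathway, in the later one by both of its probes (−1.85 and −1.38, adjusted p = 0.043 and 0.0074).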

How the data were processed

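The authors deposited 1 table of processed log10 ratios for 22575 probes on 64 arrays; the base was read here from limits at 2 and −2, and no source used here gives the background correction, normalization or dyes. A factor of 3.3219 and a change of sign gave log2 of embryo over reference. Of the values 1.47% were at a limit and 1.12% exactly 0. For 2-colour arrays the number of arrays limits the precision, and depth does not apply.

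Groups and replicate numbers come from the labels, which do not say whether arrays of a group hold separate collections of embryos, so p-values measure the spread between arrays only. The stage set was kept as deposited (array medians within 0.24). The treatment set, with medians 0.53 apart against a limit of 0.5, was quantile-normalized. Its lowest median, −0.348, was that of 43 h control array 1, and the next lowest was −0.0243. Replicate arrays correlated at up to 0.980 and none was a copy. The lowest mean correlation of an array with the others of its group was 0.821 in the stage set. In the treatment set it was 0.76, for AC array 1 of 43 h. Each set was fitted in R 4.3.3 with limma 3.58.1 (lmFit, contrasts.fit, eBayes), 1 mean per group, two-sided, with Benjamini-Hochberg adjustment over all 22575 probes and a call at adjusted p under 0.05. The fit was also run on simulated stage arrays with independent normal noise. That simulation did not model the limits, the unlabelled parts or the treatment set, so it cannot show how these bear on the calls. Probes were named by the platform annotation, in which 4262 carry 1 symbol, 6822 several and 11491 none; 4247 of the former matched a current gene by Entrez number and 0 changed name.

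The members and gene lists were chosen with earlier results of these data known. Named list genes are up to 3 called per direction, given by the probe of largest difference, and like patterns are the 5 highest correlations over the 19 group means. Differences smaller than their standard error were not followed through the alternatives, which varied the scaling, the arrays in the fit, zeros, the probe filter, the unlabelled parts and the replicate block. Deviations from the group mean correlated between same-numbered arrays from −0.435 to 0.588, and every pair exceeded 0.1 only within AM (0.151 to 0.497 and 0.225 to 0.371) and within DMSO (0.193 to 0.289), so in general the numbers were not taken to pair arrays.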

Additional observations from a re-analysis of the deposited data

How the results depend on the processing

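Of 241 alternatives to the 16 called member differences, 0 turned the direction, 183 kept the call and 58 missed the threshold. Limits come from few arrays per group, from array parts that no label names and from Ier2 values at the lower limit; the causes of lost calls were not tested. Among uncalled differences, Ier2 from 4-cell to 8-cell embryos (−0.59) was 0.53 scaled to 1 interquartile range and 0.33 with array part as a block, and Ier5 from unfertilized eggs to blastocysts was 0.09 with part as a block and 0.66 within part 2. The replicate block ended the call of Id1 between unfertilized and fertilized eggs (1.15, adjusted p = 0.063), leaving 0 members, and changed no other member call. As deposited, the median over all probes moved from 0.03 to 0.18 for AM at 43 h and from 0.04 to 0.20 for controls from 43 to 54 h.

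Counts of members called changed as follows. Scaling to 1 interquartile range gave 2 from fertilized eggs to 2-cell embryos, 1 from 2-cell to 4-cell embryos, 2 for morulae over 4-cell embryos, 0 from 43 to 54 h in controls, 0 for AM at 54 h and 1 from 32 to 43 h in AM. Fitting only the groups compared gave 0 for fertilized over unfertilized eggs, 0 from 2-cell to 4-cell embryos, 2 from 43 to 54 h, 1 for AM at 54 h and 0 from 32 to 43 h in AC. Quantile normalization gave 2 for blastocysts over unfertilized eggs. Part as a block gave 0 from 4-cell to 8-cell embryos, and part 1 alone gave 0 for fertilized over unfertilized eggs and 0 for morulae over 4-cell embryos. Without the 4 arrays with few features at the upper limit, 1 was called from 32 to 43 h in controls, 0 from 43 to 54 h, 0 for AM at 54 h and 1 in AC. With single arrays left out the counts were 0 to 1 in the egg, fertilized egg to 2-cell, 8-cell to morula, both control and AC against DMSO comparisons, 1 to 2 from 2-cell to 4-cell embryos, 0 to 2 for AM at 54 h and 0 to 3 from 32 to 43 h in AC.

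Counts of all probes called, with the range over all alternatives, were 173 (0 to 412) for fertilized eggs over unfertilized eggs, 6183 (3218 to 7691) for 2-cell embryos over fertilized eggs, 3075 (1341 to 4618) for 4-cell embryos over 2-cell embryos, 9285 (578 to 12218) for 8-cell embryos over 4-cell embryos, 1101 (0 to 4252) for morulae over 8-cell embryos, 300 (138 to 981) for blastocysts over morulae, 2446 (1171 to 3287) for morulae over 4-cell embryos. They were 71 (0 to 166) for 32 h control over 21 h control, 813 (392 to 1194) for 43 h control over 32 h control, 922 (234 to 1684) for 54 h control over 43 h control, 0 (0 to 22) for 43 h AM over 43 h control, 1457 (652 to 1879) for 54 h AM over 54 h control, 508 (55 to 507) for 43 h CHX over 43 h control, 349 (47 to 429) for 43 h CHX over 43 h AM. They were further 46 (0 to 2866) for 43 h AC over 43 h DMSO, 148 (36 to 225) for 32 h DMSO over 32 h control, 0 (0 to 4) for 43 h DMSO over 43 h control, 18 (1 to 74) for the AM difference at 54 h over 43 h, 769 (282 to 828) for 43 h AM over 32 h AM, 27 (0 to 49) for 54 h AM over 43 h AM, 5492 (2423 to 6415) for 43 h DMSO over 32 h DMSO, 3863 (0 to 9298) for 43 h AC over 32 h AC.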
